A study of Rattus norvegicus with 26 samples.

Results

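The neurotrophic factors and their receptors were followed in the rat spinal cord after compression injury, with and without transplanted mesenchymal stem cells from human umbilical cord (hUC-MSCs). The 8 genes were chosen by name: the ligands Bdnf, Ntf3 and Gdnf, and the receptors Ntrk2, Ntrk3, Ngfr, Gfra1 and Ret. Of the 32883 genes in the count table, 7 of these 8 had a row, and Gfra1 was not analysed here. All rats were wild-type adult female Sprague-Dawley animals of 250 g, labelled as postnatal day 70. The study's methods name the immunosuppressant cyclosporin A for the transplantation procedure and do not say whether Intact rats received it. The Intact group (n = 4) held spinal cords of intact or sham rats. In all other groups the cord had been compressed at T10 for 1 min with an aneurysm clip of 60 g force. The sub-SCI group (n = 3) was sampled at day 7 after injury, which is the day of transplantation. The +PBS groups received PBS at that day and were sampled 1 week (n = 3), 2 weeks (n = 2) and 4 weeks (n = 4) later, and the +MSC groups received hUC-MSCs intrathecally and were sampled at the same weeks (n = 3, 3 and 4). A 5 mm segment centred on the lesion was taken from each cord, so every library is RNA of whole tissue with all its cell types mixed. The labels do not say whether the libraries of a group came from separate animals. The study's methods speak of biological replicates and, for some groups, of repeats. The p-values measure the spread between these libraries.

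Neurotrophins are secreted as precursors and cleaved to mature proteins, and each mature form prefers one tyrosine kinase of the Trk family. BDNF binds TrkB, encoded by Ntrk2, and neurotrophin-3, encoded by Ntf3, binds TrkC, encoded by Ntrk3. All of them, and above all the uncleaved precursors, also bind the p75 receptor, encoded by Ngfr, which has no kinase and can signal growth arrest or death. GDNF belongs to another family: it binds GFRα1, encoded by Gfra1, and the pair then activates the kinase Ret. In the spinal cord, motor neurons, sensory afferents and long axon tracts depend on these factors, truncated TrkB is abundant in astrocytes, and p75 reappears in Schwann cells and other cells after damage.

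Total counts ranged from 19496602 to 43468509 per library. Levels are given as CPM, the counts of a gene scaled to a common library total. Differences are log2 fold changes from edgeR's quasi-likelihood test over 17990 tested genes with Benjamini-Hochberg adjustment, and a gene was called at an adjusted p under 0.05. Libraries of a group were not equally alike: the third +PBS-1w library lay inside the sub-SCI range for Ntrk2, Ret and Ngfr, and the other 2 of that group did not. All 7 genes passed the filter on low counts, but Ntf3 had 10 or more counts in 3 of the 26 libraries and Gdnf in 8, so these ligands were measured with few reads.

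Receptors were far more abundant than ligands in the uninjured cord. Per kilobase of annotated exon, the mean level in the Intact libraries was 65.6 ± 3.26 CPM per kb for Ntrk2 (SD, n = 4), 25.2 ± 1.898 for Ret, 10.8 ± 0.390 for Ntrk3 and 3.18 ± 0.709 for Ngfr. The ligands followed at 0.451 ± 0.0932 CPM per kb for Bdnf, 0.425 ± 0.0866 for Gdnf and 0.0692 ± 0.0594 for Ntf3. Bdnf and Gdnf, neighbours in this order, differed by less than their spread, and each other step was larger than the SDs on both sides of it. The order rests on the annotated lengths, which run from 700 bases for Gdnf to 10685 bases for Ntrk2, and gene counts do not separate full-length from truncated Ntrk2 transcripts or the alternative first exons of Bdnf. After injury the order changed among both receptors and ligands. In sub-SCI the level per kilobase was 25.7 ± 7.92 CPM per kb for Ntrk2 and 22.8 ± 8.93 for Ngfr (SD, n = 3). Ret followed at 9.55 ± 4.08 and Ntrk3 at 2.93 ± 0.701. Ntrk2 and Ngfr differed by less than their SDs. Gdnf, at 0.978 ± 0.477 CPM per kb on 12 to 30 counts, was above Bdnf, at 0.321 ± 0.109, by more than either SD.

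Injury lowered the 3 receptor tyrosine kinases and raised p75. In sub-SCI against Intact, 1 of the 7 genes was called higher (Ngfr) and 3 were called lower (Ntrk2, Ntrk3 and Ret). Across all tested genes, 30.5% were called higher and 30.9% lower in that comparison, so a call alone does not set these genes apart, and the description below rests on the size and course of each change. The median log2 fold change of the 7 genes was -0.49, against -0.02 over all tested genes.

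Ntrk3, the receptor of neurotrophin-3 (ENSRNOG00000018674), was the one member below the uninjured range in every injured cord. The Intact libraries held 31.5, 33.4, 34.2 and 32.3 CPM, and the sub-SCI libraries 10.6, 9.68 and 6.54 CPM. All 22 libraries of injured cords were below the lowest Intact library. In sub-SCI the log2 fold change was -1.88 (SE 0.224, adjusted p = 3.35e-07), which left 27.2% of the Intact mean.

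In the +PBS groups Ntrk3 came back in part. The +PBS-1w libraries held 19.4, 16.9 and 12.9 CPM, the +PBS-2w libraries 20.04 and 21.7 CPM, and the +PBS-4w libraries 10.2, 22.4, 22.5 and 22.8 CPM. Against Intact the log2 fold change was -1.001 at 1 week (SE 0.216, adjusted p = 0.000532), -0.65 at 2 weeks (SE 0.245, adjusted p = 0.0406) and -0.76 at 4 weeks (SE 0.196, adjusted p = 0.00274). The first +PBS-4w library lay at the sub-SCI level while the other 3 lay within 0.4 CPM of each other. Without it the 4-week value was -0.49 and was still called (adjusted p = 0.0061).

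Ntrk2, which encodes the BDNF receptor TrkB (ENSRNOG00000018839), fell in the subacute cord. Its mean was higher at 1 week, where the third library lay in the sub-SCI range, and that step was not tested. Ntrk2 held 667, 750, 694 and 695 CPM in the Intact libraries and 365, 264 and 197 CPM in sub-SCI. These groups did not overlap, and the log2 fold change was -1.35 (SE 0.225, adjusted p = 2.31e-05). Levels were 574, 657 and 345 CPM in +PBS-1w, 848 and 716 CPM in +PBS-2w, and 482, 634, 632 and 864 CPM in +PBS-4w. All 3 +PBS-1w libraries were below the lowest Intact library, at 74.9% of the Intact mean. None of these 3 groups passed the test against Intact: the log2 fold change was -0.42 at 1 week (SE 0.218, adjusted p = 0.114), 0.16 at 2 weeks (adjusted p = 0.648) and -0.10 at 4 weeks (adjusted p = 0.695), where 2 SE either side runs from -0.50 to 0.30. Without the second +PBS-1w library the 1-week value was -0.61 and was called (adjusted p = 0.0423), and without the third it was -0.19.

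Ret, the kinase through which GDNF signals (ENSRNOG00000014751), also fell in the subacute cord and was not called against Intact in the +PBS groups. The Intact libraries held 133, 145, 153 and 131 CPM and the sub-SCI libraries 75.5, 54.6 and 30.0 CPM. No sub-SCI library reached the Intact range, and the log2 fold change was -1.40 (SE 0.274, adjusted p = 0.000151). In the +PBS groups Ret held 156, 141 and 56.1 CPM at 1 week, 159 and 185 CPM at 2 weeks, and 131, 117, 146 and 134 CPM at 4 weeks. Both 2-week libraries were above every Intact library, but no +PBS group passed the test against Intact: on the log2 scale the differences were -0.25, 0.29 and -0.09 (adjusted p = 0.438, 0.465 and 0.783). The intervals of 2 SE ran from -0.78 to 0.28, from -0.30 to 0.88 and from -0.58 to 0.40. The third +PBS-1w library lay in the sub-SCI range.

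Ngfr, which encodes p75 (ENSRNOG00000005392), moved the other way. It held 10.2, 13.1, 7.45 and 10.8 CPM in the Intact libraries and 53.2, 62.3 and 107 CPM in sub-SCI, a 7.17-fold rise (log2 fold change 2.84, SE 0.484, adjusted p = 3.01e-05). Of the 22 libraries of injured cords, 21 were above every Intact library, and the exception was the first +MSC-4w library at 11.97 CPM. The rise was smaller with time: the +PBS libraries held 32.7, 32.2 and 100.2 CPM at 1 week, 32.6 and 34.7 CPM at 2 weeks, and 14.2, 38.4, 25.8 and 44.5 CPM at 4 weeks. Against Intact the log2 differences were 2.41 (adjusted p = 0.000243), 1.70 (adjusted p = 0.0138) and 1.57 (adjusted p = 0.00595).

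In each of the 3 +PBS comparisons with Intact, 1 of the 7 genes was called higher (Ngfr) and 1 lower (Ntrk3). Over all tested genes 26.7% were called higher and 26.4% lower at 1 week, 19.7% and 17.0% at 2 weeks, and 28.6% and 23.9% at 4 weeks. The 2-week calls are the least firm, since that group has 2 libraries and the call of Ngfr was lost when either one was left out, and the call of Ntrk3 when either one of them or any one of the 4 Intact libraries was left out.

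**Figure D1:**
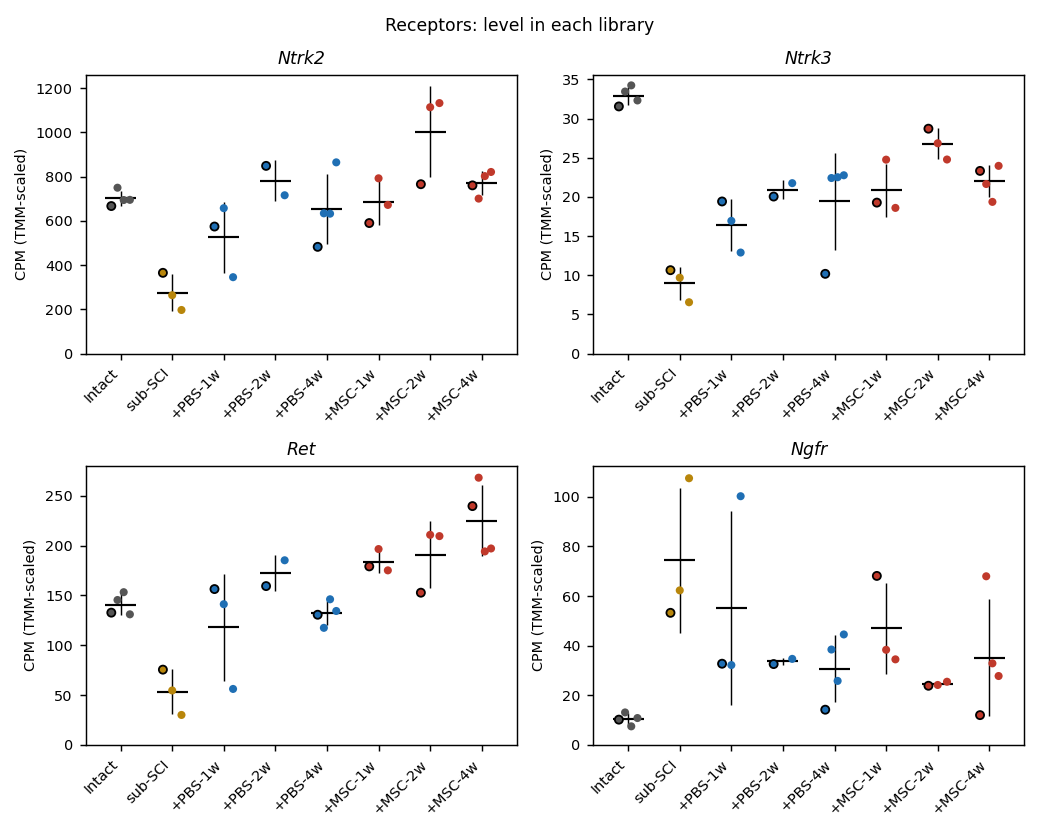
Level of the 4 receptor genes in each library (vertical axis, CPM on a linear scale from 0) for the 8 groups (horizontal axis). Each point is 1 library, black rings mark replicate 1, horizontal lines are group means and vertical lines ± 1 SD. Ntrk3 is below the Intact range in all 22 libraries of injured cords, Ntrk2 and Ret are lowest in sub-SCI, and Ngfr is above the Intact range in 21 of 22.

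The change between the subacute cord and the untreated cord 4 weeks later was tested directly. In +PBS-4w against sub-SCI, 3 of the 7 genes were called higher and 1 lower, with 13.4% and 11.6% called over all tested genes. On the log2 scale Ntrk2 rose by 1.25 (SE 0.224, adjusted p = 0.000394), Ntrk3 by 1.12 (SE 0.219, adjusted p = 0.000856) and Ret by 1.31 (SE 0.274, adjusted p = 0.00147). Every +PBS-4w library was above every sub-SCI library for Ntrk2 and Ret, and for Ntrk3 the first +PBS-4w library overlapped them. Ngfr fell by 1.28 (adjusted p = 0.0478), a call that held in 8 of the 26 fits that each left out 1 library and gave -0.91 without the third sub-SCI library.

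The ligands showed no called difference between injured and uninjured cords. Bdnf (ENSRNOG00000047466), the neurotrophin released by active neurons, held 3.27, 2.38, 2.13 and 3.15 CPM in the Intact libraries and 1.95, 2.61 and 1.29 CPM in sub-SCI. The groups overlapped, and the log2 fold change was -0.49 (SE 0.425, adjusted p = 0.330). In the +PBS groups it held 1.87, 2.05 and 2.60 CPM at 1 week, 1.98 and 4.62 CPM at 2 weeks, and 2.61, 1.34, 2.24 and 1.15 CPM at 4 weeks, and its log2 differences from Intact were -0.33, 0.27 and -0.57 (adjusted p = 0.531, 0.683 and 0.234). The interval of 2 SE at 4 weeks, from -1.36 to 0.22, includes 0.

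Gdnf (ENSRNOG00000012819), a survival factor of motor neurons, was counted 1 to 30 times per library. It held 0.327, 0.366, 0.231 and 0.266 CPM in Intact and 0.349, 0.689 and 1.02 CPM in sub-SCI, where 2 of 3 libraries were above the Intact range. The log2 fold change was 1.19 (SE 0.650, adjusted p = 0.118). The +PBS-1w libraries were spread from 0.0595 over 0.410 to 0.480 CPM, and the +PBS-2w libraries, at 0.160 and 0.187 CPM, were both below the Intact range, on 5 and 6 counts. All 4 +PBS-4w libraries, at 0.224, 0.247, 0.224 and 0.0918 CPM, were below the lowest sub-SCI library, a log2 difference of -1.75 (SE 0.665) that missed the threshold in edgeR's test (adjusted p = 0.0574). DESeq2 called it, on all libraries (-1.82, adjusted p = 0.0404) and on the 2 groups (-1.78, adjusted p = 0.0411), as did edgeR without replicate 1 libraries (-2.17, adjusted p = 0.0268) and 4 of the 26 fits that left out 1 library.

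Ntf3 (ENSRNOG00000019716), the ligand of TrkC, was close to the limit of detection, with 0 to 21 counts per library. It had no count in the third Intact library and in the first and the third +MSC-2w libraries, and a count of 0 allows up to 3 counts, or 0.139, 0.125 and 0.154 CPM, by counting error alone. The 3 highest libraries were the third +PBS-1w library at 0.801 CPM, the second +PBS-4w library at 0.741 CPM and the second +MSC-4w library at 0.328 CPM, and the other 23 were at or below 0.218 CPM. The high values fell in single libraries of 3 different groups, and no comparison of Ntf3 passed the test.

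**Figure D2:**
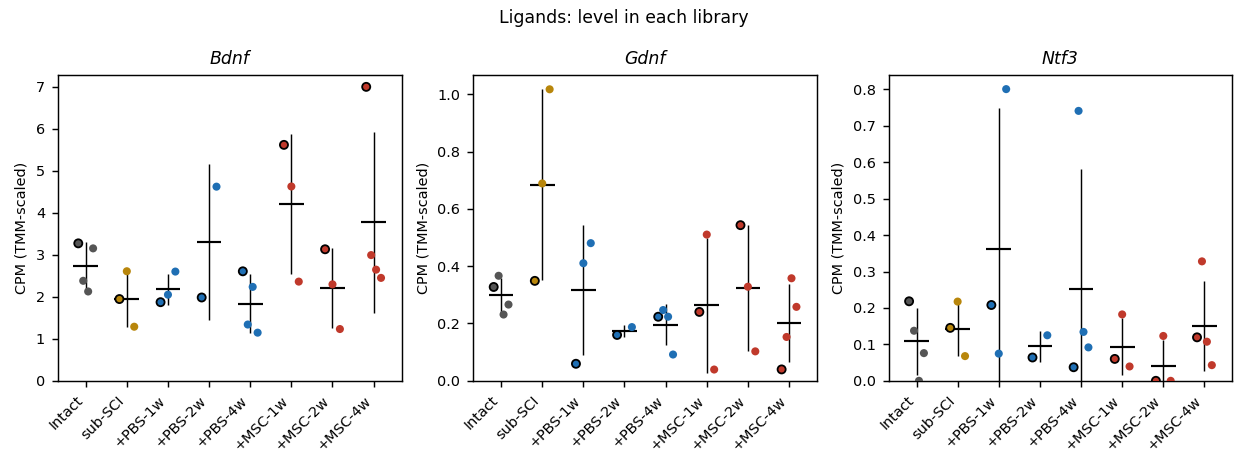
Level of the 3 ligand genes in each library (vertical axis, CPM on a linear scale from 0) for the 8 groups, drawn as in the plot of receptor levels. All 3 ligands stay at or below 7.00 CPM, and the groups overlap in most comparisons, with single high libraries for Bdnf in +MSC-4w and for Ntf3 in +PBS-1w and +PBS-4w.

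The effect of the transplant was tested against +PBS of the same week. No member was called at any single week: 0 of 7 at 1 week, where 0.0389% of all genes were called higher and 0.0611% lower, 0 of 7 at 2 weeks, where 0% were called in either direction, and 0 of 7 at 4 weeks, where 3.07% were called higher and 0.928% lower. At an unadjusted p under 0.05 edgeR's test gave 2 members at 1 week and 2 at 4 weeks, Bdnf and Ret both times, and 0 at 2 weeks. DESeq2 on all libraries called 0, 0 and 1 members at these weeks, the one being Ret at 4 weeks. A quasi-likelihood test of whether the effect differed between weeks called no member and 0% of all genes. Bdnf was the one member with an unadjusted p under 0.05 in it (adjusted p = 1), as were 481 of all genes, and DESeq2 called 0 members and 4 genes.

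Ret was the member with a called difference when the 3 weeks were averaged. At 1 week the +MSC libraries held 179, 196 and 175 CPM against 156, 141 and 56.1 CPM with PBS, at 2 weeks 153, 211 and 209 CPM against 159 and 185 CPM, and at 4 weeks 240, 268, 194 and 197 CPM against 131, 117, 146 and 134 CPM. At 1 and 4 weeks every +MSC library was above every +PBS library, and at 2 weeks the groups overlapped. The log2 fold changes by week were 0.64 (SE 0.282, adjusted p = 0.238), 0.15 (SE 0.316, adjusted p = 0.906) and 0.77 (SE 0.245, adjusted p = 0.0768), and their mean was 0.52, or 1.43-fold (SE 0.164, adjusted p = 0.0269).

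In that averaged comparison 1 of the 7 genes was called higher and 0 lower, where 12.3% and 10.9% of all genes were. Among the 26 fits that each left out 1 library, Ret stayed called in 25 and lost its call without the first +PBS-2w library (0.46, adjusted p = 0.125). The 1-week difference rested in good part on the third +PBS-1w library: without it the value fell from 0.64 to 0.30. Without any replicate 1 library the mean of the weeks was 0.60 but no longer called (adjusted p = 0.0648).

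Set against the uninjured cord, Ret with hUC-MSCs exceeded the Intact level at 4 weeks. There every +MSC library was above every Intact library, and the log2 difference was 0.68 (SE 0.245, adjusted p = 0.0396), while the +PBS-4w value was -0.09. That call held in 20 of 26 fits that left out 1 library, and was lost without the first or the second +MSC-4w library or any 1 of the 4 Intact libraries, where the value lay between 0.58 and 0.72. It was also lost without all replicate 1 libraries, where the value was 0.63. At 1 week every +MSC library was also above every Intact library, but the log2 difference of 0.39 was not called (adjusted p = 0.272).

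The RefSeq window upstream of the Ret start is shown because Ret carries this difference. It covers 250 bases on chromosome 4 of build GRCr8, chr4:153040557-153040806 on the minus strand, and the capitals mark CG dinucleotides.
Ret: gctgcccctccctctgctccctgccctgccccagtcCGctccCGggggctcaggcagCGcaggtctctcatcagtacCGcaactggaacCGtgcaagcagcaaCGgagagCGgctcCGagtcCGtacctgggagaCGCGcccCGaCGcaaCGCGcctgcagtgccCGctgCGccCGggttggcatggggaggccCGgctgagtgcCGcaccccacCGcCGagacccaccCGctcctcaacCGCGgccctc
The whole window of 300 bases, from 250 before to 50 after the start, has a GC content of 74% and 35 CG dinucleotides, against medians of 51.7% and 7 over the 33469 windows of the RefSeq table. Methylation was not measured here, so this is a description of the sequence.

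Bdnf was higher with hUC-MSCs at 1 and 4 weeks in the means, with an unadjusted p under 0.05 at both, but it did not pass the adjustment over all genes. It held 5.62, 4.63 and 2.36 CPM in +MSC-1w, 3.13, 2.30 and 1.23 CPM in +MSC-2w, and 7.00, 2.99, 2.65 and 2.45 CPM in +MSC-4w. Each of these groups overlapped the +PBS group of its week, and in each the first library was the highest. The log2 fold changes were 0.95 (SE 0.447, adjusted p = 0.269), -0.57 (SE 0.495, adjusted p = 0.670) and 1.04 (SE 0.392, adjusted p = 0.122), and their mean was 0.47 (SE 0.259, adjusted p = 0.196).

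Single libraries weighed heavily in these Bdnf values. Without the first +MSC-4w library the 4-week value fell from 1.04 to 0.56, and without the first +MSC-1w library the 1-week value fell from 0.95 to 0.69. Between the replicate 1 libraries of the same week, +MSC was 3.001 times +PBS at 1 week, 1.58 times at 2 weeks and 2.68 times at 4 weeks, and between the means of the other libraries it was 1.502, 0.382 and 1.71 times. Fitted without replicate 1, the mean of the weeks was 0.00, but that fit left 1 +PBS-2w library, the one at 4.62 CPM. With that library alone left out the mean was 0.72, and without the other +PBS-2w library it was 0.29. Replicate 1 held the highest Bdnf level in 5 of the 8 groups, and nothing in the labels says what replicate 1 libraries share. Reads that matched the human genome were removed by the authors before counting, and whether reads of the transplanted cells remained was not tested.

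Bdnf has several promoters, and RefSeq gives 6 windows for it. The motif searched was the core of the cAMP response element, TGACG or its reverse complement CGTCA, in a window from 250 bases before to 50 after each start. It was found in 1 of the 6 Bdnf windows, in the 1 Gdnf window and in none of the 3 Ntf3 windows, the 1 Ret window or the 1 Gfra1 window. Of the 3 genes whose levels were most like that of Bdnf, each with 1 window, it was found for Egr4, an immediate early transcription factor, and not for Pdyn or Mthfd2l. Of all 33469 windows, 21.2% held it, and 1.83% held the full element TGACGTCA, which none of these windows did. The stretches of 100 bases that hold the motif are given from GRCr8, with the motif in capitals.
Bdnf, chr3:116637748-116637847 on the plus strand: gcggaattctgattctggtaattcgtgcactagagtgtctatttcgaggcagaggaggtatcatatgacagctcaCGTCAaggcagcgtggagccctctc
Gdnf, chr2:58621203-58621302 on the plus strand: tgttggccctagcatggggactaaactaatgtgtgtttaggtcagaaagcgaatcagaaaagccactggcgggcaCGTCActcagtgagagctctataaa
Egr4, chr4:119607903-119608002 on the minus strand: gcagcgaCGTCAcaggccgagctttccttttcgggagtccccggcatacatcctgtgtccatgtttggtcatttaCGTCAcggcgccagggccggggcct
A match is a stretch of letters and no measured binding site.

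None of the other receptors was called between +MSC and +PBS when edgeR was fitted to all libraries. In the mean of the weeks Ntrk2 and Ntrk3 had an unadjusted p under 0.05 in edgeR's test. Their fitted differences were positive at each week, and the mean for Ntrk2 was called in 2 of the 26 fits that left out 1 library. Ntrk2 held 590, 792 and 672 CPM in +MSC-1w, 766, 1114 and 1132 CPM in +MSC-2w, and 760, 700, 802 and 821 CPM in +MSC-4w. It overlapped the +PBS libraries at every week, and the mean of the weeks was 0.33 (SE 0.134, adjusted p = 0.0818). Ntrk3 held 19.3, 24.7 and 18.6 CPM in +MSC-1w, 28.7, 26.8 and 24.8 CPM in +MSC-2w, and 23.3, 21.6, 19.4 and 23.96 CPM in +MSC-4w. At 2 weeks all 3 +MSC libraries were above both +PBS libraries, and the mean of the weeks was 0.29 (SE 0.131, adjusted p = 0.107).

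Ngfr showed no common direction over the weeks. It held 68.1, 38.3 and 34.5 CPM in +MSC-1w, 23.8, 24.1 and 25.4 CPM in +MSC-2w, and 11.97, 68.0, 32.8 and 27.7 CPM in +MSC-4w. All 3 +MSC-2w libraries were below both +PBS-2w libraries, while the groups overlapped at 1 and 4 weeks. The mean of the weeks was -0.16 with an interval of 2 SE from -0.74 to 0.41 (adjusted p = 0.732).

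A difference of the size seen for Ret was not detectable for Gdnf and Ntf3 at this depth. Gdnf held 0.240, 0.510 and 0.0394 CPM in +MSC-1w, 0.543, 0.328 and 0.103 CPM in +MSC-2w, and 0.0398, 0.153, 0.358 and 0.258 CPM in +MSC-4w, and the mean difference from +PBS was 0.23 (2 SE from -0.64 to 1.11). Ntf3 was at or below 0.182 CPM in all 6 libraries of +MSC-1w and +MSC-2w and between 0.0430 and 0.328 CPM in +MSC-4w, with a mean difference of -1.19 (2 SE from -2.55 to 0.17).

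**Figure D3:**
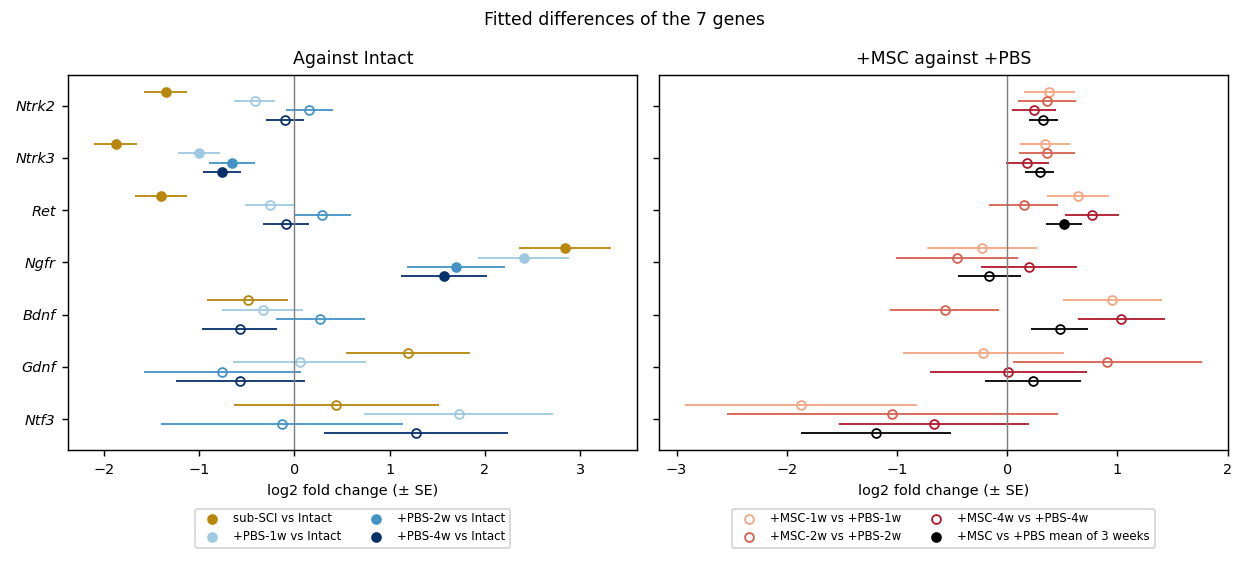
Fitted log2 fold change (horizontal axis, lines ± 1 SE) of the 7 genes (vertical axis), on the left for sub-SCI and the +PBS groups against Intact and on the right for +MSC against +PBS by week and for the mean of the 3 weeks. Filled points passed an adjusted p under 0.05. On the right the mean for Ret, at 0.52, is the single filled point, and the intervals of Ntf3 and Gdnf are the widest.

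Compared with Intact, the +MSC groups still showed the injury pattern at p75 and TrkC, in comparisons added after the values had been seen. Ngfr was called higher at 1 week (2.18, adjusted p = 0.00145) and at 4 weeks (1.76, adjusted p = 0.0054), and Ntrk3 was called lower at 1 week (-0.66, adjusted p = 0.0224) and at 4 weeks (-0.58, adjusted p = 0.0294). With Ret higher at 4 weeks, this made 1 higher and 1 lower of 7 at 1 week (18.3% and 14.8% over all genes), 0 of 7 at 2 weeks (12.7% and 6.44%) and 2 higher and 1 lower at 4 weeks (17.7% and 13.6%). At 2 weeks edgeR's test gave 2 members, Ntrk2 and Ngfr, at an unadjusted p under 0.05, DESeq2 on all libraries called 1, and fits on these 2 groups alone called 4 by either tool. All 3 +MSC-2w libraries were below the Intact range for Ntrk3 and above it for Ngfr and Ntrk2. The call of Ntrk3 at 1 week was lost without the first or the third +MSC-1w library, and at 4 weeks it held in 21 of 26 fits that left out 1 library, with values from -0.62 to -0.52.

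The other genes of the neurotrophic pathways were taken as 75 genes in 9 lists, of which 73 were tested. In sub-SCI 23 were called higher and 28 lower, in +PBS-4w 24 and 24, and in the mean of +MSC against +PBS 13 and 8. Over all tested genes the shares called higher and lower were 30.5% and 30.9%, 28.6% and 23.9%, and 12.3% and 10.9%, and the counts of the 73 correspond to shares near or above these. The median log2 fold change of the 73 was -0.10, -0.12 and 0.02 in these comparisons, near the -0.02, 0.05 and -0.02 over all tested genes. By single week with hUC-MSCs the calls were 0 at 1 and 2 weeks in edgeR's test and 4 at 4 weeks.

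Among the other ligands tested, Ntf4, Gdf15 and Nrtn were called higher in sub-SCI. Gdf15, listed here beside the GDNF family ligands, went from a mean of 0.740 CPM in Intact to 25.7 CPM in sub-SCI (log2 difference 5.09, SE 0.49, adjusted p = 1.48e-08). With hUC-MSCs Gdf15 was lower in the mean of the weeks (-1.14, SE 0.25, adjusted p = 0.00387), as was Ntf4, the second ligand of TrkB (-0.84, adjusted p = 0.0454), a gene at under 1 CPM in every group mean. Nrtn, which encodes neurturin, was higher in +PBS-4w (1.10, adjusted p = 0.00189).

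Most listed receptors and co-receptors of the neurotrophins were called lower after injury. Of 9 tested, a list that does not hold Ngfr, which rose, 8 were called lower in sub-SCI, 7 in +PBS-1w, 5 in +PBS-2w and 6 in +PBS-4w, where 30.9%, 26.4%, 17.0% and 23.9% of all genes were, and none was called higher. Sorcs3, a sortilin-type receptor of neurons (-2.47, adjusted p = 1.49e-06), and Lingo1, a partner of p75 in the Nogo receptor complex (-2.24, adjusted p = 9.19e-07), were among those called.

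Over all tested genes 12.3% were called higher and 10.9% lower with hUC-MSCs in the mean of the weeks. Of these 9 receptors and co-receptors, 5 were called higher in that mean and none lower. Among them were Sorcs3 (0.91, SE 0.19, adjusted p = 0.00257), Lingo1 (0.68, adjusted p = 0.00675), Sorcs2 (0.37, adjusted p = 0.021) and Sort1 (0.32, adjusted p = 0.0249). Of 5 tested receptors of the GDNF family, 3 were called lower in sub-SCI, 3 in +PBS-1w and 2 in +PBS-4w. Over all tested genes the shares called lower were 30.9%, 26.4% and 23.9%. Those called lower included Ncam1 (-0.64 in +PBS-4w, adjusted p = 0.00782) and Sdc3 (-0.66 in +PBS-4w, adjusted p = 0.000544). None of the 5 was called with hUC-MSCs. Gfra3, the artemin receptor, was the one called higher, in +PBS-1w (2.77, adjusted p = 0.00754) and +PBS-4w (2.21, adjusted p = 0.0234). Its +PBS-1w libraries were far apart, at 3.39 ± 5.04 CPM (SD, n = 3) against 0.478 ± 0.306 CPM in Intact (SD, n = 4).

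Adaptors that carry the signal from Trk and Ret moved in both directions. Of 14 tested, 7 were called lower and 1 higher in sub-SCI, where 30.9% and 30.5% of all genes were. In the mean of +MSC against +PBS 5 were called higher and 1 lower, where 12.3% and 10.9% of all genes were. Dok6, an adaptor that binds Ret, fell from 16.9 CPM in Intact to 1.52 CPM in sub-SCI (-3.47, adjusted p = 5.67e-08) and was higher with hUC-MSCs (1.04, SE 0.20, adjusted p = 0.00161), also at 4 weeks alone (1.44, adjusted p = 0.0114). The neuronal adaptors Shc2 (0.51, adjusted p = 0.00371) and Shc3 (0.67, adjusted p = 0.0186) were higher in the mean, as were Frs3 (0.32, adjusted p = 0.0494) and Sos1 (0.29, adjusted p = 0.00959). Shc1, the broadly expressed form, moved the other way at both steps (2.60 in sub-SCI, adjusted p = 8.9e-09; -0.49 with hUC-MSCs, adjusted p = 0.0185).

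Proteases that cleave the precursors were mixed. Pcsk2, a convertase of neurons, fell in sub-SCI (-3.56, adjusted p = 3.98e-07) and was higher with hUC-MSCs (1.05, SE 0.24, adjusted p = 0.00428), while Furin, the ubiquitous convertase, rose in sub-SCI (2.03, adjusted p = 1.34e-10) and was lower with hUC-MSCs (-0.35, adjusted p = 0.00616). In the p75 list Rhoa, the small GTPase behind its growth-arrest signal, rose in sub-SCI (1.05, adjusted p = 2.22e-09) and was lower with hUC-MSCs in the mean (-0.35, SE 0.05, adjusted p = 0.000456) and at 4 weeks (-0.37, adjusted p = 0.0131). Of the 17 other neurotrophic factors and receptors, 9 were called higher and 4 lower in sub-SCI, where 30.5% and 30.9% of all genes were. In the mean of the weeks 12.3% of all genes were called higher and 10.9% lower. There Lifr was called higher (0.66, adjusted p = 0.0239) and Hgf (-0.44, adjusted p = 0.0314) and Ptn (-0.46, adjusted p = 0.0377) lower. Of 8 genes that respond to BDNF and neuronal activity, Arc was called higher with hUC-MSCs (0.80, SE 0.23, adjusted p = 0.0186) and Dusp6 lower (-0.27, adjusted p = 0.0309), and Fos was not called (0.05, adjusted p = 0.888).

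**Figure D4:**
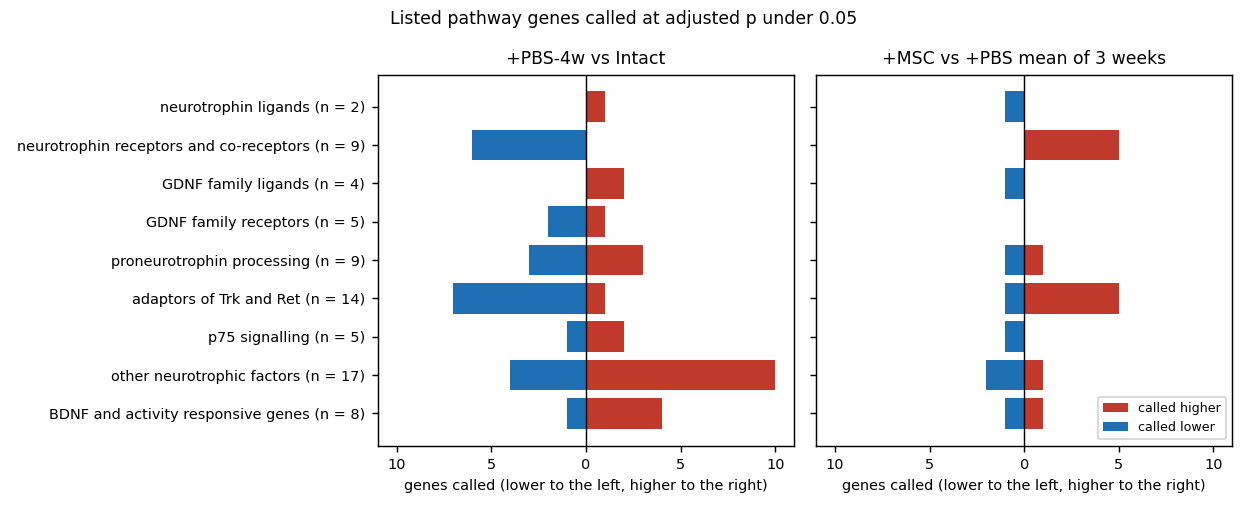
Number of listed pathway genes called lower (bars to the left) and higher (bars to the right) at an adjusted p under 0.05, for each of the 9 lists (vertical axis, with the number tested), in +PBS-4w against Intact and in the mean of +MSC against +PBS over the 3 weeks. Of the 9 neurotrophin receptors and co-receptors 6 are called lower on the left and 5 higher on the right, and the 2 panels share the +PBS-4w libraries.

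The genes whose levels were most like those of each member were taken by Pearson's r of log2 CPM over the 26 libraries, as a description that includes the differences between groups. Those nearest to Ntrk2 were Cntn1 (r = 0.960), Amot (0.949) and Aqp4 (0.946), the last the water channel of astrocytes. Those nearest to Ntrk3 were Magi2 (0.970), Dcc (0.964) and an unnamed gene. For Ngfr they were Gas7 (0.895), Gask1b (0.895) and Nrp1 (0.888), for Ret Sult1d1 (0.911), Tfcp2l1 (0.906) and Folh1 (0.902), and for Bdnf Pdyn (0.738), Mthfd2l (0.733) and Egr4 (0.728). For Gdnf and Ntf3 the highest r was 0.732 and 0.714, with few counts behind them.

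Among the members, Ntrk2 and Ret were the most alike pair, with r = 0.897 over the 26 libraries and 0.721 after the group means were taken out. Ntrk2 and Ntrk3 followed with 0.834 and 0.647. Ntrk3 and Ngfr ran opposite over all libraries (-0.657) but not within groups (-0.01), so their opposition lay between groups.

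Cell type markers also differed between the groups, and fewer cells of a type and less RNA per cell cannot be told apart in whole tissue. The summed level of 10 neuron markers was 9898 to 11995 CPM in Intact, 536 to 2200 CPM in sub-SCI, 1785 to 6251 CPM in +PBS-4w and 5958 to 7468 CPM in +MSC-4w. All 10 were called lower in sub-SCI, and 9 of 10 were called higher in the mean of +MSC against +PBS, beside the higher Ret, Sorcs3 and Dok6. Over all tested genes 30.9% were called lower in sub-SCI and 12.3% higher in that mean. Of 6 cholinergic motor neuron markers 5 were called lower in sub-SCI and 3 higher with hUC-MSCs, with summed levels of 123 to 417 CPM in +PBS-4w and 369 to 557 CPM in +MSC-4w. Of 8 astrocyte markers 4 were called lower in sub-SCI and 2 higher with hUC-MSCs. Their sum was 6805 to 8469 CPM in Intact and 4945 to 9579 CPM in sub-SCI. It was 12348 to 17941 CPM in +PBS-4w, above every Intact library, and 11783 to 15966 CPM in +MSC-4w. The sums of all 3 lists overlapped between +PBS-4w and +MSC-4w. For the neuron and cholinergic sums the overlap came from the first +PBS-4w library alone, at 6251 and 417 CPM. The other +PBS-4w libraries held 1785 to 2472 CPM and 123 to 184 CPM, below every +MSC-4w library. Over the 26 libraries the log2 level of Ret had r = 0.709 with the neuron sum, 0.802 with the cholinergic sum and 0.721 with the astrocyte sum, as a description that includes the group differences.

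Beside the higher Ngfr, all 8 fibroblast markers were called higher in sub-SCI, with summed levels of 172 to 1255 CPM in Intact and 8020 to 19528 CPM in sub-SCI, and all 8 were called lower in the mean of +MSC against +PBS, where Ngfr was not. All 8 microglia and macrophage markers were called higher in sub-SCI (318 to 514 CPM against 3160 to 4390 CPM), and 3 were called lower in the mean of +MSC against +PBS. Of 7 Schwann cell markers 2 were called higher in sub-SCI, 3 in +PBS-4w and none with hUC-MSCs, and their sum varied from 23.96 to 1234 CPM within Intact alone. Of 8 oligodendrocyte markers 7 were called lower in sub-SCI and 1 higher with hUC-MSCs. In sub-SCI 1 of 5 precursor markers was called higher and 1 lower, and of 4 endothelial markers 2 were called higher and 1 lower. With hUC-MSCs 1 precursor marker and 2 endothelial markers were called lower in the mean of the weeks, and none higher. Over all tested genes 30.5% were called higher and 30.9% lower in sub-SCI, and 28.6% higher in +PBS-4w. In the mean of +MSC against +PBS the shares were 12.3% higher and 10.9% lower. A further endothelial marker with a row was at 0 in every library, and no other marker was at 0 in all libraries of a group. The part of cell composition in the differences of the members was not tested.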

How the data were processed

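Poly(A) RNA of rat spinal cord was sequenced as 150-base pairs. Per the labels and the study's methods, the authors trimmed reads with Trim Galore 0.5.0, aligned with HISAT2 2.1.0, removing read pairs that matched human GRCh38 before alignment to Rnor6, filtered with SAMtools 1.9 and counted with featureCounts 1.6.4. The removal could also take conserved rat reads, which was not tested. Annotation release and strand setting are not given in the sources used here. The deposited values are raw counts per gene, equal in the joint table and the 26 per-library files. The labels, which were followed, give 3 +MSC-2w and 2 +PBS-2w libraries, whereas the study's methods give 2 for +MSC-2w and 3 for +PBS-2w, so the group sizes at 2 weeks are in doubt.

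One model over 26 libraries and 8 groups was fitted with edgeR 4.0.16 in R 4.3.3 (filterByExpr, TMM, quasi-likelihood F test, no covariates), keeping 17990 genes, with Benjamini-Hochberg adjustment over all of them. SE is the log2 fold change over the root of F. CPM uses the TMM-scaled total of tested genes, and correlations use log2 CPM with a prior count of 2. The alternatives were DESeq2 1.42.0, pairs of groups fitted alone, other size factors and filters, the DEG limits of an absolute log2 fold change above 1 and adjusted p under 0.01, a replicate block, a term for replicate 1, its omission, and each library left out.

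The members and lists were chosen with earlier results of these data known, and +MSC against Intact was added after values were seen. Named pathway genes are those called with hUC-MSCs, and up to 2 higher and 2 lower per list with the smallest adjusted p in +PBS-1w or +PBS-4w against Intact; the 3 genes nearest to each member were taken by r. Sequences are from RefSeq (GRCr8). 5 of the 8 members matched its promoter table, and no coordinates of the counted build are given. Fold changes of antisense or overlapping genes could not be separated without the strand setting. Results for some of the listed pathway genes are not reported here.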

Additional observations from a re-analysis of the deposited data

Results flagged for a closer look

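In 21 tests of single extreme libraries within the groups of 4, 4 libraries stood apart from the other 3 by Dixon's 95% limit, where chance alone gives about 1 in 20. Bdnf was 7.00 CPM in the first +MSC-4w library, with the nearest of the others at 2.99 CPM. Ntf3 was 0.741 CPM in the second +PBS-4w library, with the nearest at 0.134 CPM. Gdnf was 0.0918 CPM in the fourth +PBS-4w library, with the nearest at 0.224 CPM. Ntrk3 was 10.2 CPM in the first +PBS-4w library, with the nearest at 22.4 CPM. Ntf3 and Gdnf rest on few counts in these libraries, and the cause of the other values was not tested.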

How the results depend on the processing

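Counts of members called are given out of 7. In +PBS-2w against Intact 2 became 1 without a filter on low counts, 1 without replicate 1 libraries and 0 at the DEG limits, and 3 with either tool on the 2 groups. The DEG limits also gave 1 in place of 2 in +PBS-4w and in +MSC-1w against Intact, 1 in place of 3 in +MSC-4w against Intact, and 0 in place of 1 in the mean of +MSC against +PBS, which was also 0 without replicate 1 libraries. DESeq2 on 2 groups gave 1 in place of 0 in +MSC-2w against +PBS-2w (Ngfr), and 1 in place of 0 in +MSC-4w against +PBS-4w (Ret, also with DESeq2 on all libraries). In +PBS-4w against sub-SCI 4 became 2 with edgeR on 2 groups, which tested 5 members, and 5 with DESeq2 on all libraries or 2 groups and without replicate 1 libraries (Gdnf gained). In +MSC-2w against Intact 0 became 1 with DESeq2 on all libraries, 1 with a term for replicate 1, 1 without replicate 1 libraries and 4 with either tool on the 2 groups. With 1 library left out the counts ran from 4 to 4 in sub-SCI, 2 to 3, 0 to 2 and 2 to 2 in +PBS against Intact at 1, 2 and 4 weeks, 0 to 0, 0 to 0 and 0 to 1 in +MSC against +PBS, 0 to 2 in their mean, 3 to 5 in +PBS-4w against sub-SCI, 1 to 2, 0 to 1 and 1 to 3 in +MSC against Intact, and 0 to 0 in the test between weeks. Same-numbered libraries were weakly alike in part: 10 of 21 pairs had r above 0.1 (-0.078 to 0.247). A replicate block left every count of members as it was (4 in sub-SCI, 1 in the mean of +MSC against +PBS). Over all tested genes it raised the calls, from 18 to 130 in +MSC-1w against +PBS-1w and from 719 to 1059 in +MSC-4w against +PBS-4w. What same-numbered libraries share was not tested. The causes of these changes were not tested. Of the single-member values under all alternatives, 2797 kept direction and side of the threshold, 55 lost a call, 35 gained one, 54 uncalled values changed sign and 0 called values reversed. Depth limits Ntf3 and Gdnf, and 2 libraries limit +PBS-2w.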
